A study of Mus musculus with 10 samples.

Results

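The 10 genes described here form the core of the circadian clock and its best-known output, and were followed through 10 liver RNA samples. They are Arntl (also called Bmal1), Npas2, Clock, Per1, Per2, Per3, Cry1, Nr1d1, Nr1d2 and Dbp. They were found by symbol in the platform annotation, where each had 1 probe, so they are 10 of 16383 named genes and 10 of 23438 probes. Livers of 6 Tgfbr2+/- mice, which carry a heterozygous knockout of the gene for the type II TGF-beta receptor, were profiled beside livers of 4 wild-type littermates, all on chow diet. Every sample was hybridised on a 2-colour array against 1 common RNA pool made from livers of 6 wild-type mice, so each value is a log2 ratio over that pool and carries no absolute level. The titles of the Tgfbr2+/- samples name males, while those of the wild-type samples state no sex. Age, strain, the construction of the knockout allele, the lighting schedule, the hour of collection and whether the 4 wild-type mice also entered the pool were not stated in any source used here. The labels name no promoter or Cre that would limit the knockout to a cell type, and the RNA is of liver with no sort named.

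The mammalian clock is a feedback loop of transcription. ARNTL pairs with CLOCK, or with its relative NPAS2, and the pair binds E-box elements to switch on the Per and Cry genes, Nr1d1, Nr1d2 and Dbp. PER and CRY proteins then return to the nucleus and repress that pair, while the nuclear receptors NR1D1 and NR1D2 (REV-ERB alpha and beta) repress Arntl, Npas2 and Cry1 through ROR elements. In mouse liver these transcripts cycle over the day, with Arntl and Npas2 high around the end of the night and Nr1d1, Dbp and the Per genes high later, through the light phase and into dusk. Livers taken at unlike hours would therefore be expected to move the first arm against the second, which is why the arms were compared library by library.

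Letters of the elements named above were looked for near the start sites of the members, and the windows that hold them are shown because the E-box and the ROR element are the letters through which the arms are known to act on each other. A match describes the sequence and is not evidence of binding. The search covered 300 bases per annotated start (250 before it and 50 after) in the RefSeq promoter table, build GRCm38.p6, on both strands, for the E-box CACGTG, the D-box TTATGTAA or TTACGTAA, to which DBP binds, the ROR element core TAGGTCA or TGGGTCA, and the cyclic AMP element TGACGTCA. The table held 13 windows for 9 of the members, with no entry for Per2. A match was found for 4 of them. An E-box stood in the windows of Per1 and Cry1, 2 D-boxes in that of Per3 and 1 ROR element core in that of Arntl. The E-box was present in 7.15% of all 32851 windows in the table, the D-box in 1.056%, the ROR element core in 6.453% and the cyclic AMP element in 1.79%. The other 5 members with a window (Npas2, Clock, Nr1d1, Nr1d2 and Dbp) held none of these letters there, which says nothing of elements elsewhere in those genes. The 250 bases before the start of Per1 (first annotated start, chr11:69098699-69098948, plus strand), Cry1 (chr10:85185055-85185304, minus strand) and Per3 (chr4:151044666-151044915, minus strand) follow, with the matched letters in capitals. For Arntl the 30 bases around the ROR element core are given (chr7:113207530-113207559, plus strand), whose core begins 31 bases after the second annotated start.
Per1: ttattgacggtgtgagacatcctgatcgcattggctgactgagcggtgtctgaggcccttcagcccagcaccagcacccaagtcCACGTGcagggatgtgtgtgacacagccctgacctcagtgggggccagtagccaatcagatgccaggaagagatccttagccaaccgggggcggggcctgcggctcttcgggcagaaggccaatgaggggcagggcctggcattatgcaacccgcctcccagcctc
Cry1: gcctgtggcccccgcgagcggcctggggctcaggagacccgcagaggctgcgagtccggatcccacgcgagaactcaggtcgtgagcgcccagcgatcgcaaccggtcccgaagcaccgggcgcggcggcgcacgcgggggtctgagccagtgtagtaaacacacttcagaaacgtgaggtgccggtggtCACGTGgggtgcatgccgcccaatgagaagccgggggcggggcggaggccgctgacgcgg
Per3: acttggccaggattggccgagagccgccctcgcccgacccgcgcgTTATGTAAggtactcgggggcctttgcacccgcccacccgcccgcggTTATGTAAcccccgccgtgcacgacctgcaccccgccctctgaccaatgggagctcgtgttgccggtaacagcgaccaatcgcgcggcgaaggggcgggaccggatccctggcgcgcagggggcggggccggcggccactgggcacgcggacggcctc
Arntl: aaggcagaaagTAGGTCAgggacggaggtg

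The labels and the libraries bear on every sign below. Tgfbr2 itself (mean of its probes) was at -0.43, -0.50, -0.38, 0.049, -0.49 and -0.18 in Tgfbr2+/- replicates 1 to 6, against 0.23, 0.38, -0.074 and 0.079 in wild-type replicates 1 to 4. The difference of -0.47 ± 0.12 (SE) had an unadjusted p of 0.00216 and an adjusted p of 0.516 by limma. Its value in Tgfbr2+/- replicate 4 lay inside the wild-type range, so that library goes against its label on this gene. Ratios are read here as liver over pool. The labels do not state this, the titles name the pool first, and the reading was inferred in part from Tgfbr2 being the lower in the heterozygous knockout, so that sign is in part assumed and no check of the labels. With the opposite reading every sign below would turn, while sizes, p-values and correlations would stay. Tgfbr2+/- replicate 5 and wild-type replicate 1 correlated at r = -0.325 over all 23438 probes (Spearman's rho = -0.352), while the highest r between libraries was 0.519, so the sign of either column is unsettled. Differences of the clock genes are therefore also given with the ratios of the first of these livers, or of the second, multiplied by -1. Those of other genes are given as deposited alone. No intensities were used here, and a probe too dim to follow its transcript would also give ratios near 0.

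The clock genes did not separate the genotypes. None of the 10 passed limma's adjusted threshold of 0.05, where 0% of all 16383 genes did, and their adjusted p ran from 0.917 to 0.994. At an unadjusted p under 0.05 the count was 0 of 10, against 5.54% of all genes. In each of the 10 the values of the groups overlapped, whereas the groups did not overlap for 1.08% of all genes. The differences, Tgfbr2+/- minus wild type, were positive for 5 and negative for 5, with a median of -0.013, against a median of 0.0044 over all genes. The 95% confidence intervals were computed from all 10 columns as deposited. At their widest they reached 1.48-fold for Nr1d1, 1.34-fold for Arntl and Per2, and no more than 1.30-fold for the other 7. They do not allow for a column of wrong sign or for the weight of single libraries. The difference of Arntl was -0.34 with wild-type replicate 1 turned, and that of Nr1d1 was 0.39 without wild-type replicate 4. Without Tgfbr2+/- replicate 4, the liver whose Tgfbr2 value goes against its label, all 10 differences kept their sign, with -0.19 for Arntl, -0.14 for Cry1 and 0.20 for Nr1d1, and limma's adjusted p from 0.942 to 0.999. In whole liver, fewer cells that hold a transcript and less of it per cell cannot be told apart.

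**Figure D1:**
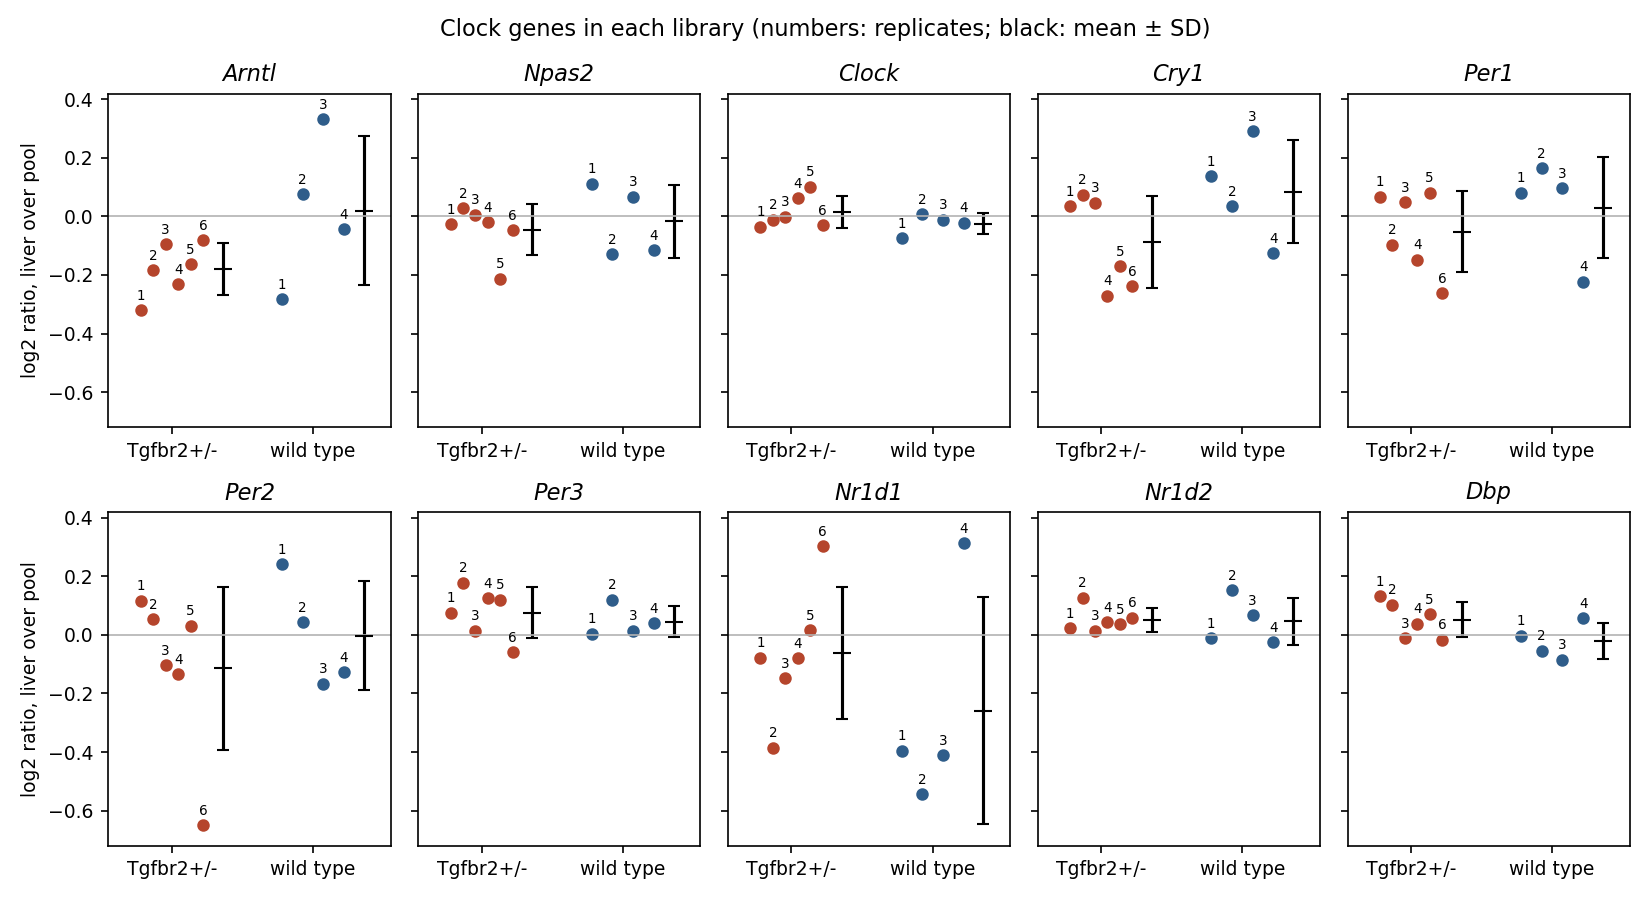
Log2 ratio of liver over pool for each clock gene (y axis), with 1 point per library, Tgfbr2+/- on the left (n = 6) and wild type on the right (n = 4); small numbers are replicate numbers and black bars are mean ± SD. The groups overlap in all 10 panels, and Nr1d1 and Per2 span the widest ranges, 0.858 and 0.892.

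Arntl, the partner that both CLOCK and NPAS2 need to bind DNA, was at -0.32, -0.18, -0.094, -0.23, -0.16 and -0.082 in Tgfbr2+/- replicates 1 to 6, against -0.28, 0.076, 0.33 and -0.044 in wild-type replicates 1 to 4. All 6 Tgfbr2+/- livers lay below the pool and close together, while the wild-type livers lay on both sides of it and wild-type replicate 1 was nearly as low as the lowest Tgfbr2+/- liver. The Tgfbr2+/- mean was -0.18 ± 0.089 (SD, n = 6) and the wild-type mean 0.020 ± 0.26 (SD, n = 4). The difference of -0.20 ± 0.10 (SE), or 1.15-fold lower, had an unadjusted p of 0.0723 and an adjusted p of 0.917 by limma, an exact permutation p of 0.105 and an interval of -0.42 to 0.021. A single wild-type library set much of its size, since it was -0.30 without wild-type replicate 1 (limma's unadjusted p = 0.00535, adjusted p = 1.0) and -0.096 without wild-type replicate 3. It was -0.34 when the ratios of wild-type replicate 1 were turned and -0.14 when those of Tgfbr2+/- replicate 5 were. Against the pool, the Tgfbr2+/- mean had an unadjusted p of 0.0165 and an adjusted p of 0.211 by limma, where 0.0122% of all genes passed.

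Npas2, which can take the place of CLOCK beside ARNTL, was at -0.026, 0.028, 0.006, -0.019, -0.21 and -0.048 in Tgfbr2+/- replicates 1 to 6, against 0.11, -0.13, 0.068 and -0.12 in wild-type replicates 1 to 4. All Tgfbr2+/- livers but replicate 5 lay within the wild-type range. The difference was -0.029 ± 0.065 (SE, interval -0.17 to 0.11, limma's adjusted p = 0.970), and its sign changed when wild-type replicate 1 (0.027) or Tgfbr2+/- replicate 5 (0.042) was turned. Clock, the histone acetyltransferase partner of ARNTL, varied least of the members: its Tgfbr2+/- values ran from -0.035 through a median of -0.006 to 0.10, and its wild-type values were -0.074, 0.008, -0.011 and -0.021. The whole range of Clock was 0.177 on the log2 scale, or 1.13-fold, and 6.09% of all genes had a smaller SD over the 10 libraries. Its difference was 0.039 ± 0.042 (SE, limma's adjusted p = 0.936). Turning wild-type replicate 1 gave 0.0022 and turning Tgfbr2+/- replicate 5 gave 0.0053, an order kept for the genes below.

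Among the repressors, Cry1, whose protein holds the ARNTL pair inactive, was lower on average in Tgfbr2+/- liver, at 0.035, 0.074, 0.047, -0.27, -0.17 and -0.24 in replicates 1 to 6, against 0.14, 0.034, 0.29 and -0.12 in wild-type replicates 1 to 4. Tgfbr2+/- replicates 4, 5 and 6 and wild-type replicate 4 were below the pool and the other 6 livers above it, so the split ran through both genotypes. The difference was -0.17 ± 0.096 (SE, interval -0.38 to 0.040, limma's unadjusted p = 0.101, adjusted p = 0.917, exact permutation p = 0.148). Leaving out wild-type replicate 4 gave -0.24, and leaving out wild-type replicate 3 gave -0.10. It was -0.10 or -0.12 with either doubtful library turned, and -0.047 with both.

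Per1, the period gene that also answers quickly to hormones, stood at 0.068, -0.097, 0.049, -0.15, 0.081 and -0.26 in Tgfbr2+/- replicates 1 to 6, against 0.081, 0.17, 0.096 and -0.22 in wild-type replicates 1 to 4. The lowest livers were 1 of each genotype, Tgfbr2+/- replicate 6 and wild-type replicate 4. Its difference of -0.082 ± 0.090 (SE, limma's adjusted p = 0.936) was -0.17 when wild-type replicate 4 was left out, -0.036 when wild-type replicate 2 was and -0.039 when Tgfbr2+/- replicate 6 was, and -0.041 or -0.11 with either doubtful library turned. Per2, the second period gene, was at 0.12, 0.054, -0.10, -0.14, 0.032 and -0.65 in Tgfbr2+/- replicates 1 to 6, against 0.24, 0.043, -0.17 and -0.13 in wild-type replicates 1 to 4. Tgfbr2+/- replicate 6 stood far below every other liver. The difference of -0.11 ± 0.14 (SE, limma's adjusted p = 0.939) was -0.0049 without that library and -0.031 without wild-type replicate 1, whose turned sign gave 0.0086. Per3, the period gene whose window above holds the D-boxes, lay above the pool in 5 of 6 Tgfbr2+/- livers and 4 of 4 wild-type livers. Its Tgfbr2+/- values ran from -0.060 through a median of 0.098 to 0.18, and its wild-type values were 0.004, 0.12, 0.015 and 0.041. The difference was 0.031 ± 0.053 (SE, limma's adjusted p = 0.957), and 0.033 or -0.0095 with either library turned.

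Nr1d1, the receptor that represses Arntl, was the most variable member, at -0.078, -0.39, -0.15, -0.079, 0.016 and 0.30 in Tgfbr2+/- replicates 1 to 6, against -0.40, -0.54, -0.41 and 0.31 in wild-type replicates 1 to 4. Its highest values came from 1 liver of each genotype, Tgfbr2+/- replicate 6 and wild-type replicate 4. The other 3 wild-type livers were the 3 lowest, with Tgfbr2+/- replicate 2 just above them. Its SD over the 10 libraries was 0.298, above that of 95.4% of all genes, and its range of 0.858 is 1.81-fold. The Tgfbr2+/- mean was -0.061 ± 0.22 (SD, n = 6) and the wild-type mean -0.26 ± 0.39 (SD, n = 4), a difference of 0.20 ± 0.17 (SE, interval -0.17 to 0.57, limma's adjusted p = 0.927, exact permutation p = 0.291). Wild-type replicate 4 had a large part in this value, which was 0.39 without it (limma's unadjusted p = 0.0094, adjusted p = 0.410). Without wild-type replicate 2 it was 0.10 and without Tgfbr2+/- replicate 6 it was 0.13, while turning wild-type replicate 1 brought it to 0.0001 and turning Tgfbr2+/- replicate 5 gave 0.19.

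Nr1d2, the second REV-ERB receptor, varied far less. Its Tgfbr2+/- values ran from 0.014 through a median of 0.040 to 0.13, all 6 above the pool, and its wild-type values were -0.011, 0.15, 0.068 and -0.025. Its difference was 0.0042 ± 0.046 (SE, interval -0.098 to 0.11, limma's adjusted p = 0.994), and -0.0011 or -0.0078 with either library turned. Dbp, a PAR bZIP factor and direct target of the ARNTL pair that is among the strongest cycling transcripts of mouse liver, spanned a narrow range here. It was at 0.13, 0.10, -0.011, 0.039, 0.070 and -0.017 in Tgfbr2+/- replicates 1 to 6, against -0.002, -0.054, -0.084 and 0.057 in wild-type replicates 1 to 4. These 10 livers thus lay within 0.217 of each other on the log2 scale, or 1.16-fold, and 19.4% of all genes had a smaller SD. The difference was 0.073 ± 0.047 (SE, interval -0.030 to 0.18, limma's unadjusted p = 0.147, adjusted p = 0.919, exact permutation p = 0.110), and 0.072 or 0.050 with either library turned.

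**Figure D2:**
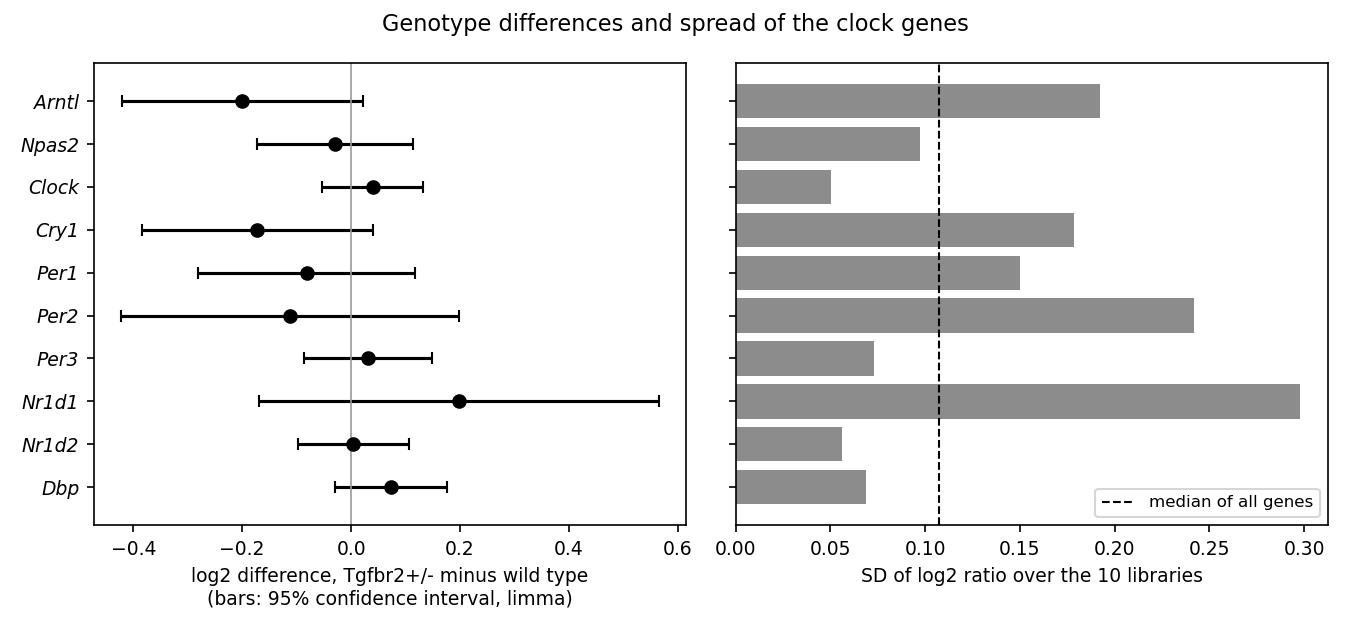
Left, log2 difference (Tgfbr2+/- minus wild type) for each clock gene with its 95% confidence interval from limma; right, SD of the log2 ratio over the 10 libraries, with the median of all genes (0.107) as a dashed line. All 10 intervals include 0, and the SD is 0.298 for Nr1d1 and 0.050 for Clock.

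Arntl and Npas2 did not oppose the other arm as a block. Of the 10 pairs that join Arntl or Npas2 with Dbp, Nr1d1, Per1, Per2 or Per3, 7 had a negative r over the 10 libraries, from -0.757 to 0.178 with a median of -0.227, and 0 passed after Benjamini-Hochberg adjustment over all 45 pairs of members. Of all 45 pairs, 22 had a negative r, the median r was 0.025, and 6 had an unadjusted permutation p under 0.05. Among the 10 opposing pairs 1 reached that level, Arntl with Dbp. Arntl with Per2 also reached that level with group means subtracted (r = -0.573, permutation p = 0.0350, adjusted p = 0.386), and Npas2 with Nr1d1 did without wild-type replicate 2 (r = -0.717, permutation p = 0.0271, adjusted p = 0.259). Arntl and Npas2 had r = -0.010 (rho = -0.248, permutation p = 0.978 and 0.490, adjusted p = 0.978 and 0.826). Between Npas2 and the 3 Per genes r was 0.056 for Per1, 0.124 for Per2 and -0.305 for Per3, with permutation p from 0.389 to 0.877 (adjusted p from 0.729 to 0.951). Between Arntl and the same genes it was 0.178, -0.341 and -0.220, with permutation p from 0.299 to 0.643 (adjusted p from 0.701 to 0.857). Nr1d1 had r = -0.233 with Arntl and -0.426 with Npas2 (permutation p = 0.532 and 0.220, adjusted p = 0.817 and 0.616). Spearman's rho of the pairs other than Arntl with Dbp ran from -0.612 for Arntl with Per2 (permutation p = 0.0683, adjusted p = 0.512) to 0.164 for Npas2 with Per2 (permutation p = 0.657, adjusted p = 0.831).

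Dbp and Arntl opposed each other more than the other pairs of the arms. Their r was -0.757 (permutation p = 0.00858, adjusted p = 0.247) and their rho -0.721 (permutation p = 0.0239, adjusted p = 0.359), and 0.324% of all genes had an r with Arntl as low. The highest Arntl and the lowest Dbp both belonged to wild-type replicate 3, and the lowest Arntl and the highest Dbp to Tgfbr2+/- replicate 1. Without wild-type replicates 2 and 3, the libraries farthest from the median of Arntl, r was -0.428, so the relation leans on them. Without Tgfbr2+/- replicate 1 and wild-type replicate 3, the farthest in Dbp, r was -0.470. With the group means subtracted r was -0.656 (permutation p within groups = 0.0440), and within the 6 Tgfbr2+/- livers it was -0.842 (exact permutation p = 0.0361, without adjustment). It was -0.779 or -0.793 with either doubtful library turned.

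**Figure D3:**
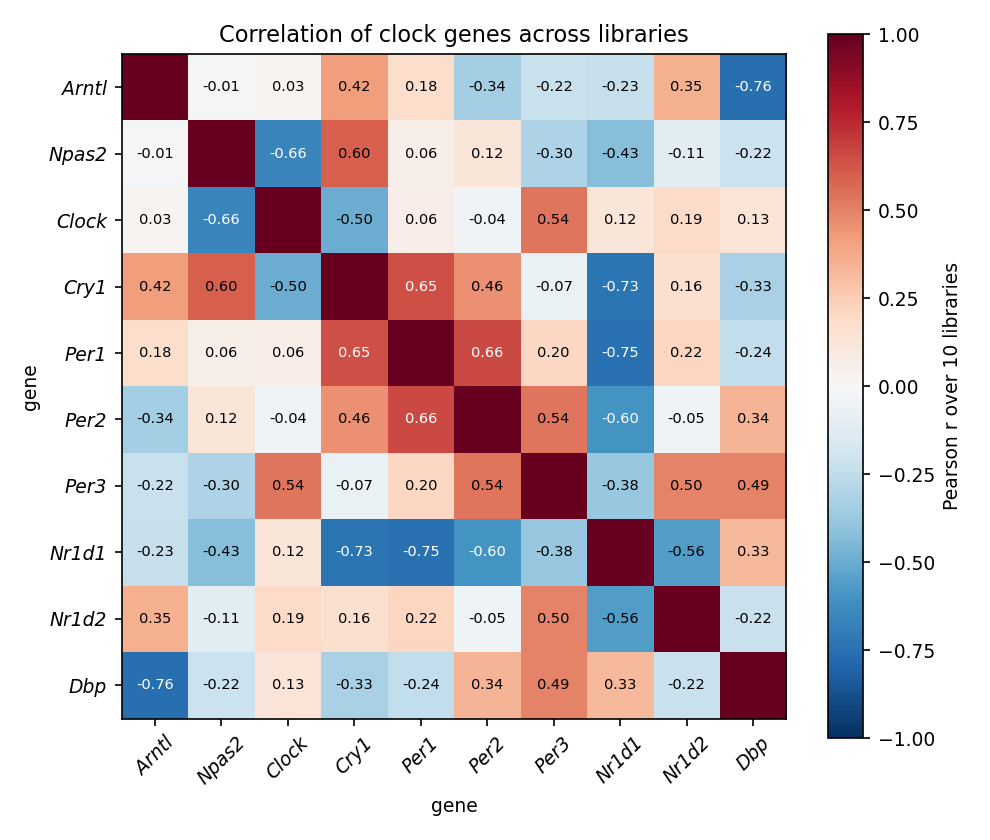
Pearson r over the 10 libraries for each pair of the 10 clock genes (both axes list genes; red positive, blue negative). The lowest values are those of Arntl with Dbp (-0.757), Per1 with Nr1d1 (-0.746) and Cry1 with Nr1d1 (-0.734), and 0 of 45 pairs passed after adjustment.

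Averaged into arms, the values stayed small. The mean of Arntl and Npas2 minus the mean of Dbp, Nr1d1, Per1, Per2 and Per3 was -0.24, -0.048, -0.004, -0.086, -0.25 and 0.072 in Tgfbr2+/- replicates 1 to 6, against -0.071, 0.027, 0.31 and -0.092 in wild-type replicates 1 to 4. It was below 0 in 5 of 6 Tgfbr2+/- livers and in 2 of 4 wild-type livers, and averaged -0.093 ± 0.13 in Tgfbr2+/- livers (SD, n = 6) and 0.044 ± 0.19 in wild-type livers (SD, n = 4). The groups overlapped, and the difference of -0.14 is given without a test since the members were chosen with results known. It was -0.047 without wild-type replicate 3 and -0.052 with Tgfbr2+/- replicate 5 turned. The arms lay on opposite sides of the pool in 4 of 10 livers. Members of the second arm partly offset each other in its mean. In Tgfbr2+/- replicate 6 Nr1d1 was at 0.304, Per1 at -0.262 and Per2 at -0.651, and the arm mean was -0.137. In wild-type replicate 4 Nr1d1 was at 0.314 and Per1 at -0.223, and the arm mean was 0.012.

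Pairs within the second arm had both signs of r. Of the 10 pairs among Dbp, Nr1d1, Per1, Per2 and Per3, 4 had a negative r, with a range of -0.746 to 0.663, and 0 passed after adjustment. These 4 were Nr1d1 with each Per gene and Per1 with Dbp (r = -0.243, rho = -0.321, permutation p = 0.490 and 0.368, adjusted p = 0.817 and 0.754). Nr1d1 with Per2 had r = -0.601 (rho = -0.321, permutation p = 0.0568 and 0.369, adjusted p = 0.365 and 0.754). That r was -0.217 without Tgfbr2+/- replicate 6 and wild-type replicate 1, and -0.682 without wild-type replicates 2 and 4. Nr1d1 with Per3 had r = -0.381 (rho = -0.176, permutation p = 0.274 and 0.631, adjusted p = 0.685 and 0.831). That r was 0.085 without Tgfbr2+/- replicates 2 and 6, and -0.300 without wild-type replicates 2 and 4. Nr1d1 and Per1 had r = -0.746 (permutation p = 0.0143, adjusted p = 0.247) and rho = -0.782 (permutation p = 0.0101, adjusted p = 0.359). Both livers high in Nr1d1, Tgfbr2+/- replicate 6 and wild-type replicate 4, were the lowest in Per1. Without both r was -0.327, so the relation leans on them together. It was -0.640 without the first alone, -0.661 without the second alone and -0.570 without wild-type replicates 2 and 4. Nr1d1 and Cry1, a known target of REV-ERB repression, had r = -0.734 (permutation p = 0.0168, adjusted p = 0.247) and rho = -0.648 (permutation p = 0.0492, adjusted p = 0.512). That r was -0.722 without Tgfbr2+/- replicates 4 and 6, the farthest in Cry1, and -0.823 without wild-type replicates 2 and 4, the farthest in Nr1d1. With group means subtracted it was -0.691 (permutation p within groups = 0.0505), and within the 6 Tgfbr2+/- livers -0.707 (exact permutation p = 0.0917).

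Per1 and Per2 had r = 0.663 (permutation p = 0.0220, adjusted p = 0.247) with rho = 0.442 (permutation p = 0.203, adjusted p = 0.608). That r was 0.274 without Tgfbr2+/- replicate 6 and wild-type replicate 4, and 0.379 without Tgfbr2+/- replicate 6 and wild-type replicate 1. The pair of E-box genes Per1 and Cry1, whose windows are printed above, had r = 0.646 (permutation p = 0.0472, adjusted p = 0.354) with rho = 0.564 (permutation p = 0.0964, adjusted p = 0.608). That r was 0.485 without Tgfbr2+/- replicate 6 and wild-type replicate 4, and 0.376 without Tgfbr2+/- replicates 4 and 6. The remaining pair with an unadjusted p under 0.05 was Npas2 with Clock, at r = -0.658 (permutation p = 0.0387, adjusted p = 0.348) and rho = -0.442 (permutation p = 0.202, adjusted p = 0.608). That r was 0.023 without Tgfbr2+/- replicate 5 and wild-type replicate 1, which are the libraries whose sign is in doubt. It was -0.534 without Tgfbr2+/- replicates 4 and 5, the farthest in Clock.

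**Figure D4:**
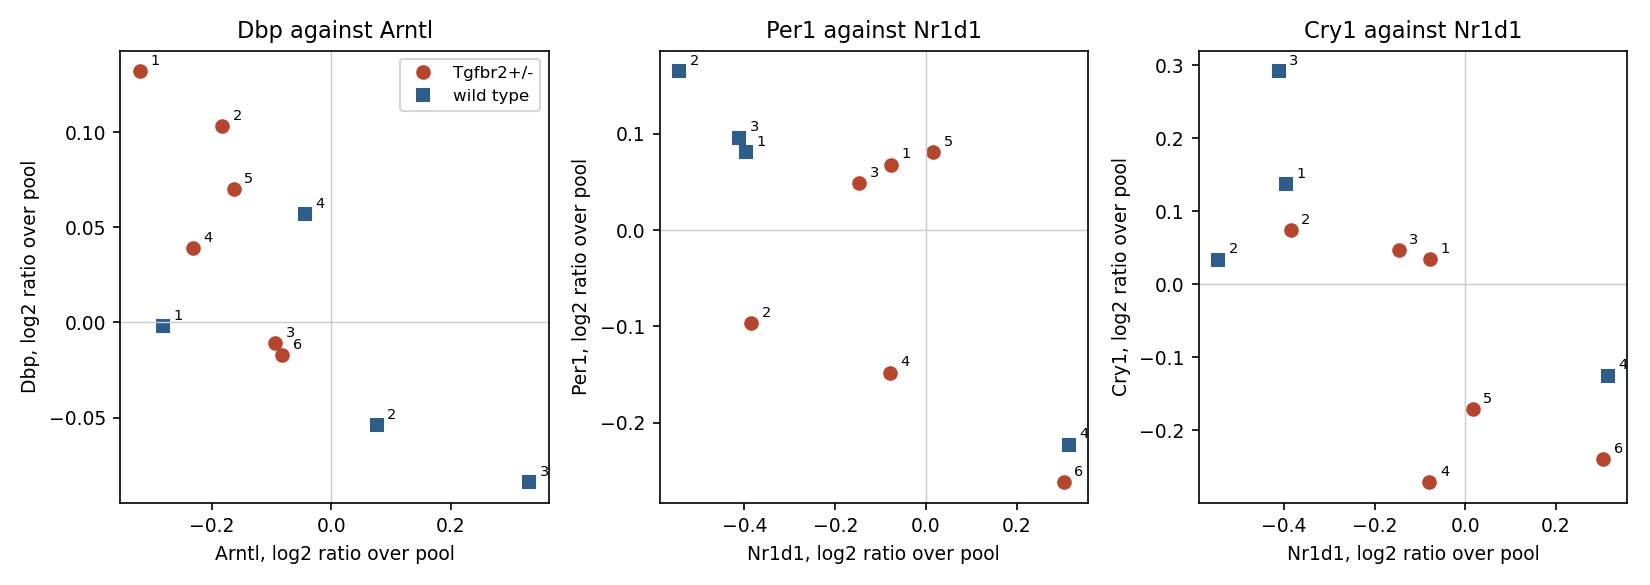
Log2 ratio over the pool of Dbp against Arntl, Per1 against Nr1d1 and Cry1 against Nr1d1, with 1 point per liver (circles Tgfbr2+/-, squares wild type, numbers are replicates). Tgfbr2+/- replicate 6 and wild-type replicate 4, at 0.30 and 0.31 for Nr1d1, sit together at the lower right of both Nr1d1 panels.

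Other genes of the clock and its outputs were read from lists. Of 15 further listed clock genes and regulators 11 were measured, 3 with positive and 8 with negative differences, a median of -0.010, and 0 past limma's adjusted threshold or an unadjusted p of 0.05. The smallest p belonged to Hlf, a PAR bZIP relative of Dbp (-0.16 ± 0.10, SE, limma's adjusted p = 0.919), and Nfil3, a repressor that competes with DBP for D-boxes (0.21 ± 0.14, limma's adjusted p = 0.919). Of 20 listed rhythmic outputs of liver 17 were measured, with a median difference of -0.050 and 0 past the adjusted threshold. At an unadjusted p under 0.05, 1 was higher (2.97% of all genes) and 3 were lower (2.57%). These were Tspan4 (0.31 ± 0.14), Insig2, an inhibitor of SREBP processing (-0.70 ± 0.19), the cell cycle inhibitor Cdkn1a (-0.36 ± 0.14) and Slc45a3 (-0.69 ± 0.28), with limma's adjusted p from 0.616 to 0.900.

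Transcripts induced by glucocorticoids, the adrenal hormones that peak daily and act on Per1 directly, were read in the same livers. Of 10 such genes, 8 were below the pool in both livers high in Nr1d1, Tgfbr2+/- replicate 6 and wild-type replicate 4. The exceptions were Klf9, at 0.21 in Tgfbr2+/- replicate 6 (its highest value) and 0.12 in wild-type replicate 4, and Sgk1, at 0.11 and -0.17 in those livers. The livers were picked by their Nr1d1 values, and the same share over all genes was not computed, so the count shows no link with Nr1d1. Some of the 8 were low elsewhere or near 0. Lcn2 was below the pool in every liver but Tgfbr2+/- replicate 5, and Zbtb16 stood at -0.052 and -0.080 in the picked livers. The 3 genes described next were picked after their values were seen. Tsc22d3, a glucocorticoid-induced leucine zipper gene, was at 0.53, 0.31, 0.043, -0.63, -0.46 and -1.06 in Tgfbr2+/- replicates 1 to 6, against 0.20, 0.26, 0.46 and -0.82 in wild-type replicates 1 to 4. Dusp1, a phosphatase gene with the same inducer, was at 0.33, 0.62, -0.014, -0.49, -0.58 and -0.82 in Tgfbr2+/- replicates, against 0.37, 0.16, 0.49 and -0.87 in wild-type replicates. Tgfbr2+/- replicates 4, 5 and 6 and wild-type replicate 4, the livers below the pool in Cry1, were the lowest in both genes. Fkbp5, a receptor co-chaperone gene induced by the same hormones, was below the pool in all 6 Tgfbr2+/- livers, from -1.25 to -0.099, and at 0.24, 0.77, 0.72 and -1.49 in wild-type replicates 1 to 4. Between genotypes it differed by -0.92 ± 0.40 (SE, limma's unadjusted p = 0.0430, adjusted p = 0.896).

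These relations were examined after the values had been seen, over 580 pairs of a member with 1 of 58 genes from 5 lists, and none of those named in this paragraph passed the adjusted threshold. Nr1d1 had a negative r with 8 of 10 glucocorticoid-induced genes, with a median of -0.728, where 54.8% of all genes had a negative r with Nr1d1. Its r was -0.867 with Dusp1 (rho = -0.782), -0.830 with Tsc22d3 (rho = -0.648) and -0.827 with Fkbp5 (rho = -0.867), with permutation p of 0.00171 to 0.00415 for r and of 0.0021 to 0.0490 for rho (adjusted p of 0.128 for r and of 0.118 to 0.386 for rho). Without wild-type replicates 2 and 4 these r were -0.885, -0.808 and -0.708. With wild-type replicate 1 and Tgfbr2+/- replicate 5 both turned they were weaker, at -0.732, -0.674 and -0.526, the last with a permutation p of 0.120 (adjusted p = 0.507). With either turned alone, Nr1d1 with Fkbp5 was -0.633 and -0.655. Cry1 had a positive r with 9 of the 10 genes, with a median of 0.466. Of all genes, 51.4% had a negative r with Cry1. Among the 9 were Tsc22d3 (r = 0.865, rho = 0.733) and Dusp1 (r = 0.862, rho = 0.818). Their permutation p were 0.00142 and 0.00201 for r and 0.0202 and 0.00624 for rho (adjusted p = 0.128 each for r, 0.324 and 0.226 for rho). Per1 had a positive r with 9 of the 10 and a median of 0.528, and 50.3% of all genes had a negative r with Per1. Per1 with Fkbp5 had r = 0.808 and rho = 0.939 (permutation p = 0.00629 and 0.00031, adjusted p = 0.140 and 0.0735). A positive r with most of the 10 genes was common among the other members too. Nr1d2 had 9 (median 0.339) and Npas2 had 7 (median 0.234). Per2, Per3 and Arntl had 8 each, with medians of 0.473, 0.300 and 0.100. Clock and Dbp had 4 each, with medians of -0.135 and -0.034. The pattern was not particular to this list. With the 17 measured rhythmic outputs of liver, Cry1 had a positive r for 12, with a median of 0.518. Nr1d1 had a negative r for 12 of them, with a median of -0.515, and Per1 a positive r for 13, with a median of 0.401. Slc45a3, 1 of these outputs, had r = -0.824 with Nr1d1 and 0.839 with Per1 (permutation p = 0.00395 and 0.00295, adjusted p = 0.128 each). Among the listed genes outside the glucocorticoid list, the lowest r of Nr1d1 was with Cry2, the second cryptochrome, at -0.872 (rho = -0.721, permutation p = 0.00124 and 0.0231, adjusted p = 0.128 and 0.324). The part of hormone level, stress or collection time in these values was not tested.

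**Figure D5:**
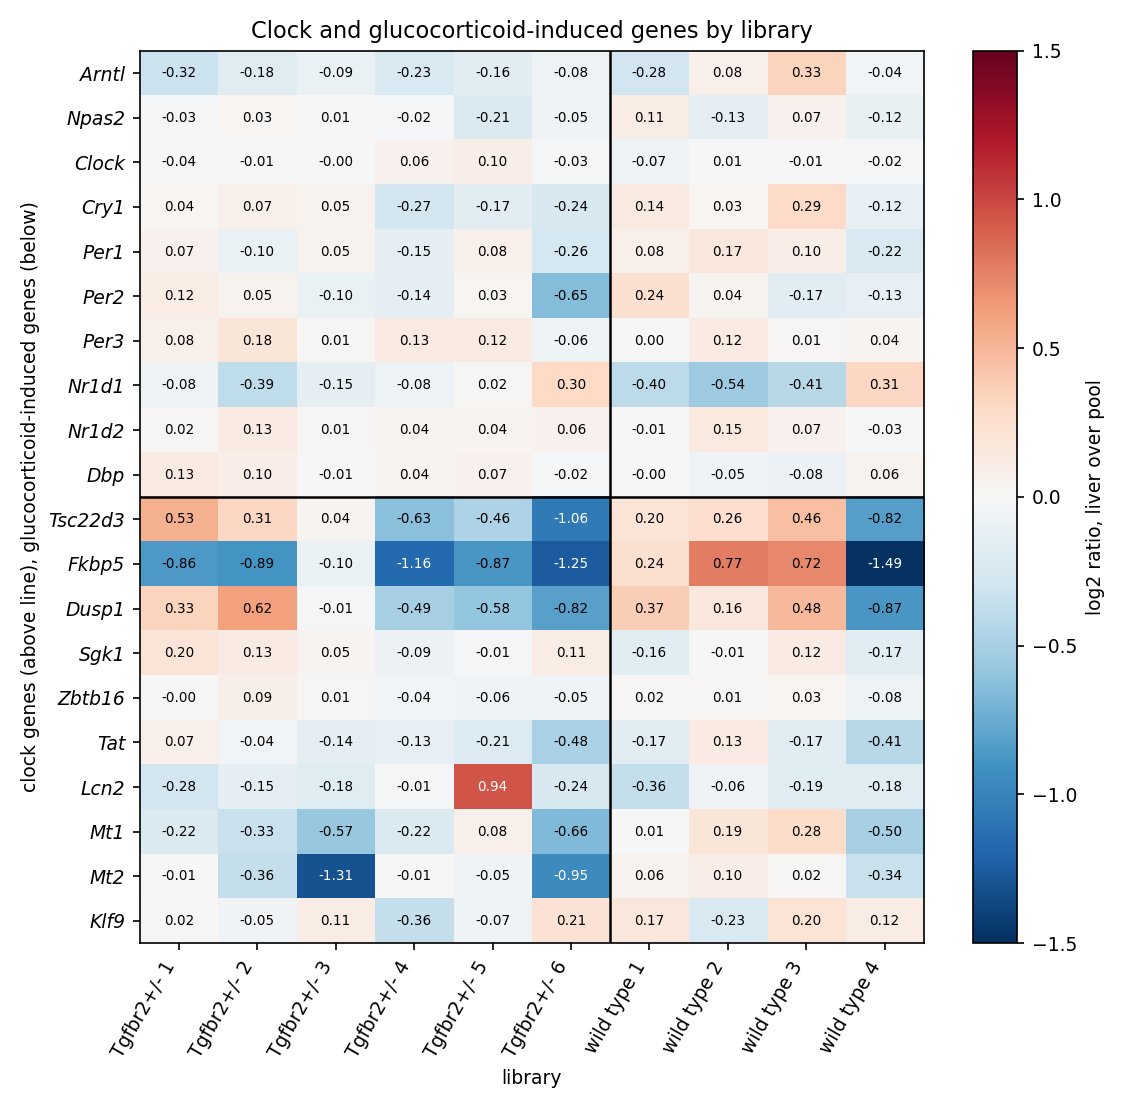
Log2 ratio over the pool of the 10 clock genes (upper rows) and 10 glucocorticoid-induced genes (lower rows) in each library, Tgfbr2+/- on the left and wild type on the right; red is above the pool and blue below. Tgfbr2+/- replicates 4, 5 and 6 and wild-type replicate 4 are below the pool in Cry1, Tsc22d3 and Dusp1.

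Feeding state and body temperature also drive rhythmic liver transcripts, so 2 further lists were read beside the members. Of 13 measured genes of fasting and feeding 0 passed limma's adjusted threshold or an unadjusted p of 0.05, and the smallest p were those of G6pc (-0.43 ± 0.24, SE) and Ppargc1a (-0.36 ± 0.20), with limma's adjusted p of 0.917 each. Of 7 measured temperature-responsive genes, the heat shock gene Hspa1a was higher (0.64 ± 0.26) and the cold-inducible Cirbp lower (-0.15 ± 0.067) at an unadjusted p under 0.05 by limma, where 2.97% of all genes were higher and 2.57% lower, with adjusted p of 0.856 and 0.900. Per2 had a negative r with 5 of these 7 genes and a median of -0.61, where 49.7% of all genes had a negative r with Per2. Its r was -0.805 with Hsph1 (rho = -0.733, permutation p = 0.00412 and 0.0207, adjusted p = 0.128 and 0.324). It was 0.784 with Rbm3, a cold-inducible RNA-binding protein gene (rho = 0.830, permutation p = 0.00283 and 0.0050, adjusted p = 0.128 and 0.193). Without Tgfbr2+/- replicate 6 and wild-type replicate 1 these r were -0.534 and 0.583.

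The genes whose pattern over the 10 libraries was most like that of Arntl by Pearson r were Dusp8 (0.876), Ybx1 (0.874), Chmp2b (0.872), Sun2 (0.872) and Asxl1 (0.864). The least like it were Epn1 (-0.889), Syk (-0.880), Tmem45b (-0.879), Ncan (-0.877) and Pgr15l (-0.858). For Dbp the most alike were Ifit3 (0.946), Mettl7b (0.929), Arf3 (0.923), Pisd (0.905) and Cacna1i (0.900), and the least alike Actn4 (-0.924), Taf4b (-0.918), Grhl1 (-0.911), Tns1 (-0.911) and Sec24d (-0.908). No clock gene or listed output is among these 20. They are the extremes of all genes over 10 points and are given as a description.

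Markers of other cell types were read in the same livers, and 0 in any list passed limma's adjusted threshold. The list mean of 9 measured Kupffer cell and macrophage markers ran from -0.058 to 0.32 in Tgfbr2+/- livers and from -0.24 to -0.13 in wild-type livers. As deposited the groups therefore did not overlap, which held for 1.08% of single genes. This list mean was 0.149 in Tgfbr2+/- replicate 5 and -0.129 in wild-type replicate 1, the libraries of unsettled sign. Turning either would make the groups overlap. Of the 9 differences, 8 were positive and 1 was negative. At an unadjusted p under 0.05 by limma, where 2.97% of all genes were higher, 6 of the 9 were higher, namely Cd5l (0.67 ± 0.097, SE, adjusted p = 0.115), Vsig4, Adgre1, Clec4f, C1qb and C1qa. That of 4 neutrophil markers ran from 0.092 to 0.41 in Tgfbr2+/- livers and from -0.21 to 0.058 in wild-type livers, with S100a9, S100a8 and Mpo higher at that level. For 6 hepatocyte markers the range was -0.16 to 0.037 in Tgfbr2+/- livers and -0.14 to 0.094 in wild-type livers, with 0 of 6 past an unadjusted p of 0.05 and the smallest p for Apoa1 and Hnf4a. Of the remaining lists, 1 of 8 endothelial markers (Clec4g) and 1 of 4 erythroid markers (Alas2) were higher at that level, against 0 of 7 stellate markers (smallest p Lrat and Colec11), 0 of 5 cholangiocyte (Epcam and Krt19), 0 of 6 lymphocyte (Cd3e and Cd8a), 0 of 4 pancreatic acinar (Cela2a and Cpa1) and 0 of 3 adipocyte markers (Fabp4 and Adipoq). The part of these cell types in the clock gene values was not tested. Since every value is a ratio to liver, these markers show no absolute level and cannot check the tissue itself.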

How the data were processed

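The authors deposited 1 table of log10 ratios, with a column per mouse, from 2-colour arrays labelled with Cy3 and Cy5 per the labels. The log10 base was read from the values, 8 of which stand at a limit of 2 in size, or 100-fold. Background correction, normalization and how dye swaps entered a column are not given in the sources used here. Column medians ran from 0.0013 to 0.0047, so the columns as deposited are centred close to 0, and none was missing. Scale and direction remain inferred. Array number limits the precision.

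Ratios were multiplied by 3.3219 to give log2, and probes of a symbol were averaged: 17726 probes had 1 symbol, 50 several and 5662 none here. Genotypes were compared by limma 3.58.1 (R 4.3.3) over all 16383 genes with Benjamini-Hochberg adjustment, and single members by exact two-sided permutation over 210 splits (smallest p 0.0048). The design text names 6 and 4 mice, 1 sample each. Correlations used 100000 two-sided permutations, and the smallest p they give is 1e-05. The limma and correlation steps were run on simulated data whose planted effects were larger than those seen among the members. Power at the sizes seen here was therefore not tested. Members and lists were chosen with earlier results of these data known. Named genes are the 10 members, Tgfbr2, list members with unadjusted p under 0.05 (else the 2 of smallest p) and the 5 most and least like Arntl and Dbp. Tsc22d3, Dusp1, Cry2, Rbm3, Hsph1, Lcn2 and the genes most like Nr1d1 were picked after their values were seen. Alternatives were both sign turns, median centring, quantile normalization, a single probe per gene, array weights, a robust variance prior, subtracted group means, the replicate number as a block and each library left out.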

Additional observations from a re-analysis of the deposited data

Results flagged for a closer look

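In 20 groups of values (10 clock genes in 2 genotypes) the gap between an extreme library and its neighbour was set against the range of its group, which by chance marks about 1 group in 20. It was large in 2. Per2 stood at -0.651 in Tgfbr2+/- replicate 6, a gap of 0.672 of the range. Npas2 stood at -0.213 in Tgfbr2+/- replicate 5, a gap of 0.686 of the range, and the sign of that library is unsettled.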

How the results depend on the processing

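None of the 190 member differences under the alternatives passed limma's adjusted threshold, and 6 had an unadjusted p under 0.05 (Arntl in 4, Cry1 and Nr1d1 in 1 each). Some differences changed sign, that of Nr1d1 among them. With wild-type replicate 1 turned, Npas2 was 0.027, Per2 0.0086 and Nr1d2 -0.0011. With Tgfbr2+/- replicate 5 turned, Npas2 was 0.042, Per3 -0.0095 and Nr1d2 -0.0078. With both turned, Npas2 was 0.0981, Clock -0.0319, Per3 -0.0075, Nr1d1 -0.0053 and Nr1d2 -0.0131, and quantile normalization gave -0.0098 for Nr1d2. The r of Npas2 with Per1 was -0.053 and with Per2 -0.098 with wild-type replicate 1 turned, and that of Arntl with Nr1d1 0.022 with both turned. The cause was not tested. Leaving out 1 library at a time, Npas2 ranged from -0.0669 to 0.0137 and Nr1d2 from -0.0195 to 0.0395, the r of Arntl with Per1 from -0.059 to 0.291 and with Nr1d1 from -0.372 to 0.034, that of Npas2 with Per1 from -0.101 to 0.28 and with Per2 from -0.15 to 0.292. The count of opposing pairs with a negative r ranged from 7 to 9 of 10 (9, 7 and 6 with wild-type replicate 1, Tgfbr2+/- replicate 5 or both turned), and the contrast of arms from -0.1812 to -0.0472.

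By limma, genes past the adjusted threshold ranged from 0 to 10 with 1 library left out, the 10 arising without Tgfbr2+/- replicate 3. Genes past an unadjusted p of 0.05 numbered 908, ranged from 582 to 1255 with 1 library left out, and were 584, 510 and 516 with wild-type replicate 1, Tgfbr2+/- replicate 5 or both turned. With the replicate number as a block there were 1518, Arntl differed by -0.2276 (limma's unadjusted p = 0.0172, adjusted p = 0.510) and Npas2 by 0.0135. Whether the numbers pair the mice cannot be decided from so few libraries. Deviations of same-numbered livers correlated at 0.0871, 0.0916, 0.3024 and 0.0072 for replicates 1 to 4. The highest r with another number was 0.1033, 0.0909, 0.0123 and 0.1049, so 2 of 4 wild-type libraries correlated best with their own number. Each member has 1 probe, so choosing the most variable probe changes no member's value. Signal over background was not used here and may limit the flattest genes.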

Other observations

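Of the 580 pairs of a clock gene with a gene of 5 rhythm-related lists, chosen for study after the data were seen, 1 passed after adjustment. Clock and Lcn2, the acute phase gene of lipocalin 2, had r = 0.872 and rho = 0.976 over the 10 livers (permutation p = 1e-05 each, the smallest that the resamples can give, adjusted p = 0.0058 each). Lcn2 was at 0.94 in Tgfbr2+/- replicate 5, far above its other values, which ran from -0.36 to -0.013, and Clock was highest in the same liver. Without that library r was 0.942 and the adjusted permutation p 0.0522, and without Tgfbr2+/- replicates 4 and 5 r was 0.939. The adjusted permutation p was 0.0696 with Tgfbr2+/- replicate 5 turned in sign (r = 0.865), 0.0522 with quantile normalization (r = 0.868) and 0.191 with group means subtracted (r = 0.862). The range of Clock behind these values is 0.177 on the log2 scale.

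The genes most like Nr1d1, listed after its values were seen, were Git1 (r = 0.969), Pola2 (0.958), Depdc7 (0.958), Grb7 (0.955) and Cxcl16 (0.939), and the least like it Tpd52l1 (-0.956), Fmo5 (-0.950), Zfp672 (-0.943), Creb3l3 (-0.926) and Cebpd (-0.925). Cebpd, an acute phase and glucocorticoid-responsive transcription factor gene, had a range of 1.93 on the log2 scale.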
